A study of Mus musculus with 20 samples.

Results

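The odorant receptor genes of mouse chromosome 9 were examined in sorted cells of the olfactory mucosa. Members were the probe sets whose identifier places them on chromosome 9 and whose symbol is Olfr followed by a number, with Olfr151 and Olfr160 left out. There were 128 of them among 22206 gene probe sets, and each represented 1 gene. Another 951 odorant receptors lay elsewhere in the genome. The rule used no measured value.

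The series measured mRNA of mice that carry a tauGFP reporter for S100a5, with the odor given as an artificial cigarette smoke odor. The 4 groups, of 5 samples each, were odor GFP+, odor GFP-, vehicle GFP+ and vehicle GFP- cells. All 30 mice, of both sexes and 7 to 12 weeks old, spent 40 h in clean air at 3.1 L/min. After 26 h they received pulses of 10 s every 20 min, of odorant in the odor groups and of filtered air in the vehicle groups. The mucosae of 3 mice made 1 pool, so that a sample stands for 3 mice. Each pool was taken to give a GFP+ and a GFP- sample, as 20 samples of 3 mice came from 30 mice. All 4 groups carry the reporter, and the GFP- fraction holds every sorted cell without its signal, inactive neurons and other cells of the mucosa and blood alike. The design text of the series names bourgeonal as the odorant, and the sample labels were followed here.

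An odorant receptor is a G protein-coupled receptor of the cilia of olfactory sensory neurons, and a mature neuron transcribes the gene of a single receptor from a single allele. The receptor thereby sets which odorants the neuron responds to, and it also guides the neuron's axon to its glomeruli in the olfactory bulb. S100a5 encodes a calcium-binding protein whose transcription follows the activity of these neurons, so that GFP marks cells that were recently active. Receptors of chromosome 9 are class II receptors, the class that makes up most of the receptors of land vertebrates, and they sit in tandem arrays whose neighbours are often close relatives.

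By their order in RefSeq (assembly GRCm38.p6) the 128 genes fell into a proximal cluster of 35, Olfr24 to Olfr18, and a distal cluster of 93, Olfr874 to Olfr986. The gap between the clusters was 17.4 Mb, and no gap within a cluster was over 127 kb. By the older MOR names in that table, which number receptor families by sequence, the members fell into 29 families. The largest was MOR171, with 34 members in the distal cluster.

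Promoter sequences of 3 members are shown. Among the named members whose RefSeq model extends well beyond the coding sequence, Olfr860 and Olfr58 had the largest gains in the sort and Olfr77 the largest loss, and all 3 lie in the proximal cluster. Each sequence is the 250 bases before the gene start in RefSeq, GRCm38.p6, written 5′ to 3′ on the gene's own strand, with matches to TAATTA in capitals. TAATTA is a core bound by homeodomain proteins such as Lhx2, a factor needed for receptor expression. Olfr860 lies on the minus strand (chr9:19849748-19849997), Olfr58 on the plus strand (chr9:19780033-19780282) and Olfr77 on the plus strand (chr9:19916979-19917228).
Olfr860: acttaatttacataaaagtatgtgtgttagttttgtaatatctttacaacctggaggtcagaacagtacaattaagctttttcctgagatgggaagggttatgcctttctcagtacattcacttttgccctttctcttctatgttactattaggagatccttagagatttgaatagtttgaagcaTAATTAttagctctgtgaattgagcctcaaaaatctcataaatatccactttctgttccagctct
Olfr58: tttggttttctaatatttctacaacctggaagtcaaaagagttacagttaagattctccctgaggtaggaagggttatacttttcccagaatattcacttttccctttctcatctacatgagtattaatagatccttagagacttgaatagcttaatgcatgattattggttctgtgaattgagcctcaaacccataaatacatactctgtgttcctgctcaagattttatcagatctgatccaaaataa
Olfr77: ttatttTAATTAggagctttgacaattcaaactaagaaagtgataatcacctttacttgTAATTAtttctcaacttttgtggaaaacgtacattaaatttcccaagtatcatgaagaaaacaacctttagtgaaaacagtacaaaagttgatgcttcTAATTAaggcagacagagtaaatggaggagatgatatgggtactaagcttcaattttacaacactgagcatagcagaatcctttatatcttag

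Olfr860 and Olfr58, both of family MOR146, could be aligned over 219 bases of these windows, of which 180, or 82.2%, were identical. Olfr77, of family MOR143, aligned with Olfr860 over 25 bases. The window of Olfr860 held 1 TAATTA, that of Olfr58 held 0 and that of Olfr77 held 3. A match is a description of the letters and not of a site in use.

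Of the 128 members 107 had such a window in the table. TAATTA, which reads the same on both strands, was in 27 of the 107 windows (25.2%) and in 1325 of 27025 windows over all genes (4.9%). The members' windows were also richer in A and T, with a median of 66.8% against 48.0% over all genes. CCCNNGGG, the core bound by the EBF factors of olfactory neurons and searched on both strands, was in 2 of the 107 (1.9%) and in 11.7% of all, and both matches were in the 21 windows before models of over 1500 bases (9.5%). Most RefSeq models of members span no more than 1500 bases and so hold little besides the coding sequence, and a window before such a model need not be the promoter. Over all 107 windows TAATTA was in 8 of 52 members that were higher in GFP+ cells (15.4%), in 5 of 19 that were lower (26.3%) and in 14 of 36 that did not pass the test (38.9%). Among the 21 with a longer model it was in 1 of 14 higher members, in 3 of 5 lower ones and in both that did not pass, and neither split was tested.

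The sort itself was checked on genes outside the receptor family. Between GFP+ and GFP- cells the change of S100a5 was 1.73 on the log2 scale (SE 0.25, with an adjusted p of 0.000239 by limma), and it was positive in 10 of 10 pools. Omp, the marker protein of mature sensory neurons, had a change of 0.17 (SE 0.16, with an adjusted p of 0.587 by limma). Of 16 mature neuron markers Ano2 and Pde1c were higher, the median change was 0.47, and the summed log2 signal was 21.2 to 22.4 in GFP+ and 21.1 to 22.2 in GFP- samples. All 11 measured white blood cell markers were lower in GFP+ cells, with a summed signal of 9.91 to 10.5 against 18.6 to 20.4 in GFP- cells, where the mean of none was at background. In GFP+ cells 6 of the 11 were at background, meaning a mean no higher than 6.34, the highest of the background control medians of 5.14 to 6.34 per array. That highest median was of an array of replicate 5, and on arrays of replicates 1 to 4 the highest was 5.85. Of 10 immature neuron markers 4 were lower (Gap43, Gng8, Stmn1 and Dpysl3), of 6 globose basal and cycling markers 4 (Kit, Mki67, Top2a and Ezh2), of 8 sustentacular markers 2 (Cyp1a2 and Sult1c1) and of 6 microvillar markers 5. The part of these cells in the receptor results was not tested. The 4 arrays of replicate 5, 1 in each group, were brighter, with median gene signals of 7.03 to 7.46 against 6.06 to 6.39 on the other 16 arrays.

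The first comparison asked which chromosome 9 receptors were more and which less abundant in GFP+ than in GFP- cells, over all 10 pools. Receptors moved in both directions. Of the 128 members, 64 (50.0%) were higher in GFP+ cells and 23 (18.0%) were lower, at an adjusted p under 0.05 by limma on the differences within pools. Over all gene probe sets 4.61% were higher and 9.39% lower. Among odorant receptors elsewhere 384 of 951 (40.4%) were higher and 208 (21.9%) lower. The median change was 0.78 over the members, 0.42 over the receptors elsewhere and 0.09 over all probe sets, and the 2 receptor sets were not tested against each other. A signal in such bulk samples cannot tell more neurons of a receptor from more receptor RNA per neuron.

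Without both pools numbered 5 the counts were 57 higher and 18 lower. A further fit left out the pools of 3 arrays (vehicle 1, vehicle 2 and odor 2) and gave 69 and 23. Outside replicate 5 these arrays correlated least with their groups. Arrays of replicate 5 stayed in that fit. Their mean correlations were 0.941 for vehicle GFP-, 0.946 for odor GFP- and 0.949 for vehicle GFP+, below the 0.951 of odor GFP- replicate 2. Odor GFP+ replicate 5 was at 0.965. The counts of both fits are of members alone, without the share of all probe sets. Taken relative to the median difference of the mature neuron markers in each pool, 46 members (35.9%) were higher and 29 (22.7%) lower, against 1.9% and 13.2% of all probe sets under the same scaling, so that 61.3% of the calls were higher against 73.6% as deposited. Centring each array on its median gave 74 higher (57.8%) and 19 lower (14.8%), against 19.4% and 7.5% of all probe sets, whose median was then 0.32 in place of 0.09.

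Among the 64 higher members the change ran from 0.67 to 4.60, with a median of 1.57. A change over 2-fold was seen in 55, over 4-fold in 20 and over 8-fold in 4. Of the 64, 56 lay above 0.97, the highest change of a mature neuron marker. Among the 23 lower members it ran from -0.79 to -6.54, with a median of -2.55. There 20 were over 2-fold, 13 over 4-fold and 9 over 8-fold. The called losses were thus fewer and, in their median, of greater size.

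**Figure D1:**
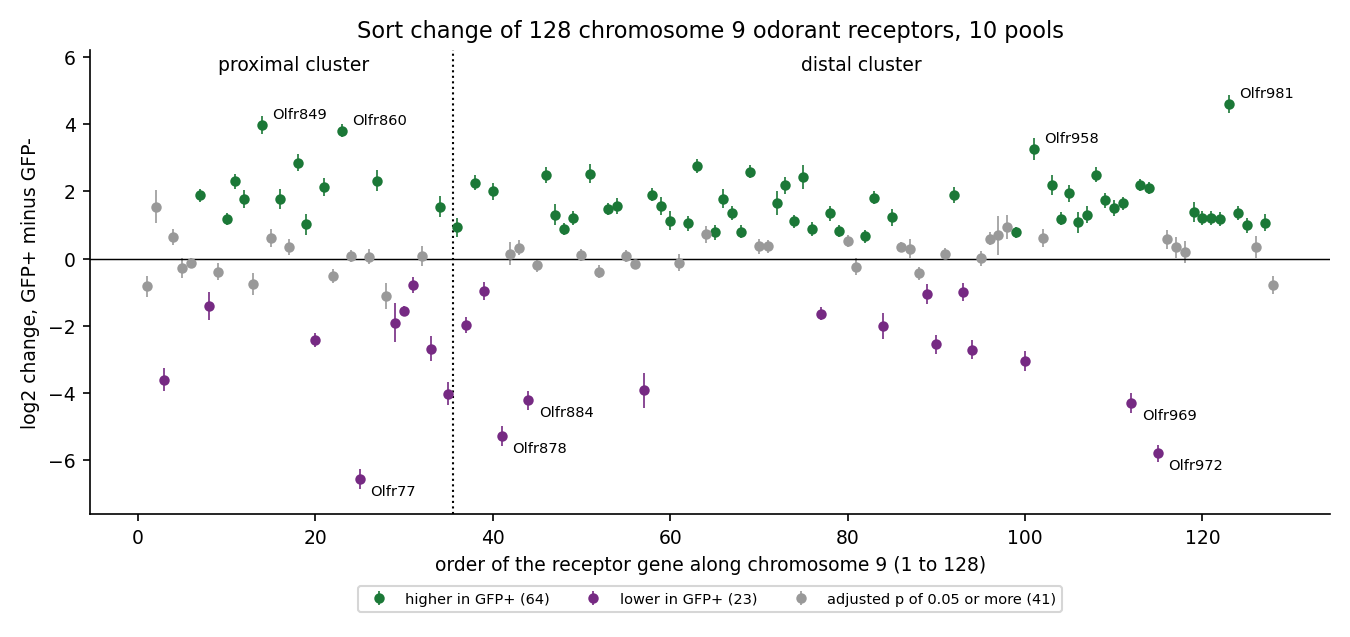
Log2 change between GFP+ and GFP- cells (y axis, points with SE, 10 pools) for each of the 128 receptors in their order along chromosome 9 (x axis); green marks higher, purple lower and grey an adjusted p of 0.05 or more. The 64 higher and 23 lower members were interspersed in both clusters, from Olfr981 at 4.60 down to Olfr77 at -6.54.

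Olfr981, of family MOR223, had the largest gain. Its log2 signal in odor GFP+ samples was 9.83, 10.09, 10.09, 9.22 and 10.76, against 6.40, 5.56, 4.66, 5.23 and 5.72 in odor GFP- samples. In vehicle GFP+ samples it was 9.81, 8.31, 10.26, 9.40 and 11.54, against 5.04, 4.99, 5.08, 5.20 and 5.43 in vehicle GFP- samples. Every GFP+ sample lay above every GFP- sample, and all 10 pools had a positive difference, with a change of 4.60 (SE 0.26, adjusted p = 2.91e-08 by limma). Its GFP- mean was at background, so only a bound of the GFP- level is known.

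Olfr849, the single member of family MOR151, had signals of 11.0 to 13.1 with a median of 11.7 in GFP+ samples, against 6.33 to 9.56 with a median of 7.77 in GFP- samples. The fractions did not overlap, and the change was 3.98 (SE 0.28, adjusted p = 2.23e-07 by limma). Olfr860, the first of the promoters shown, had 9.14 to 11.3 with a median of 9.84 in GFP+ samples, against 5.08 to 8.0 with a median of 5.86 in GFP- samples. It did not overlap between fractions either, with a change of 3.81 (SE 0.20, adjusted p = 1.65e-08 by limma) and a GFP- mean at background. Olfr958, of family MOR224, was bright in both fractions, at 12.1 to 14.6 with a median of 13.5 in GFP+ samples, against 8.22 to 11.5 with a median of 10.3 in GFP- samples. Its change was 3.26 (SE 0.34, adjusted p = 1.01e-05 by limma), and it ranged over the pools from 2.12 to 6.37.

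The next members by size, each higher in 10 of 10 pools, were Olfr854 (2.86), Olfr905 (2.76), Olfr914 (2.59), Olfr893 (2.52), Olfr965 (2.50) and Olfr887 (2.49), with SEs from 0.19 to 0.29. The GFP- mean was at background for Olfr854, Olfr905 and Olfr887 and above it for Olfr914, Olfr893 and Olfr965. Olfr893, of family MOR170, had signals of 12.0 to 13.99 in GFP+ samples, against 9.26 to 12.3 in GFP- samples, and these ranges overlapped.

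Olfr77 had the largest loss. Its log2 signal in odor GFP+ samples was 4.40, 4.53, 4.96, 4.61 and 7.27, against 12.16, 10.64, 10.55, 10.86 and 13.16 in odor GFP- samples. In vehicle GFP+ samples it was 4.85, 4.09, 4.30, 4.18 and 4.95, against 11.80, 11.38, 9.12, 10.55 and 13.36 in vehicle GFP- samples. Its GFP+ signal exceeded 6.34 in odor replicate 5 alone, and its GFP- signal did so in every sample. The change was -6.54 (SE 0.30, adjusted p = 3.42e-09 by limma), and only a bound of its GFP+ level is known.

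Olfr972, of family MOR171, had signals of 5.33 to 7.59 with a median of 6.56 in GFP+ samples, against 10.5 to 13.7 with a median of 12.1 in GFP- samples. The change was -5.79 (SE 0.25, adjusted p = 1.9e-09 by limma), and the fractions did not overlap. Olfr878, the single member of family MOR163, had 4.20 to 6.70 with a median of 5.59 in GFP+ samples, against 9.34 to 12.8 with a median of 10.5 in GFP- samples. Its change was -5.28 (SE 0.30, adjusted p = 3.2e-08 by limma), with a GFP+ mean at background. It was followed by Olfr969 (-4.29), Olfr884 (-4.22), Olfr18 (-4.02), Olfr250 (-3.91), Olfr829 (-3.60), Olfr957 (-3.04) and Olfr948 (-2.71), each lower in 10 of 10 pools. Olfr250 varied most among these pools, with differences from -6.46 to -0.13 and an SE of 0.52.

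**Figure D2:**
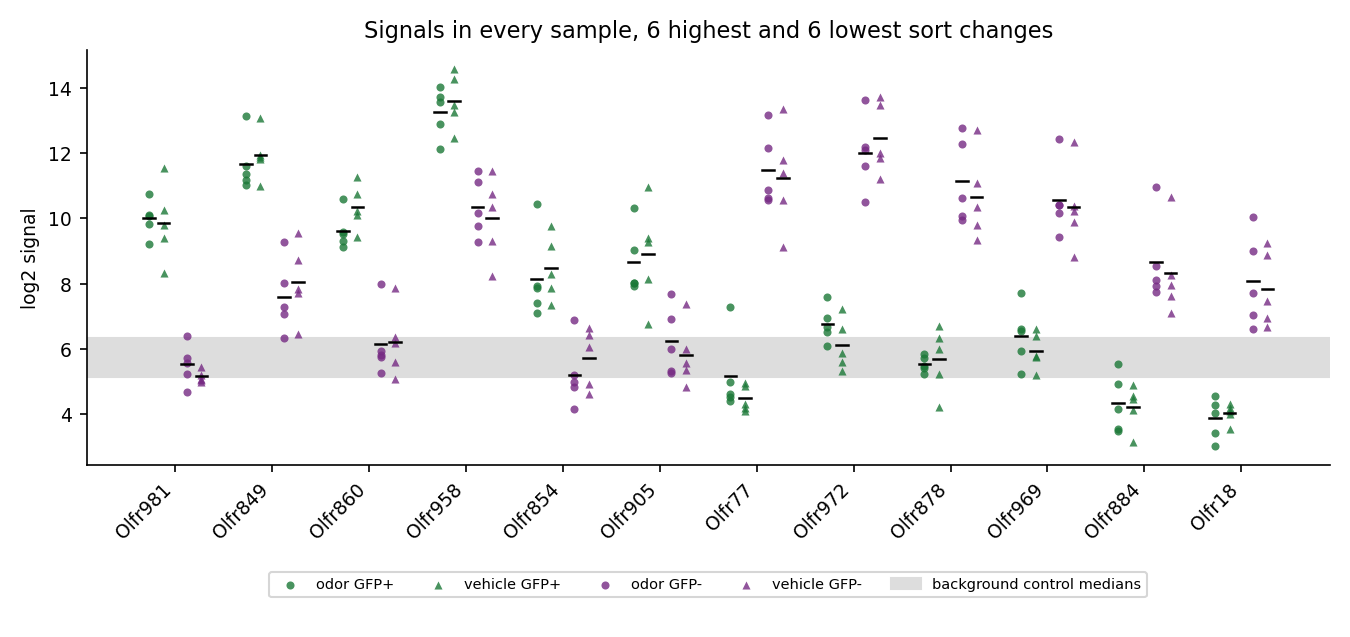
Log2 signal (y axis) of the 6 members with the largest gains and the 6 with the largest losses (x axis) in every sample, GFP+ left of GFP-, with circles for odor, triangles for vehicle, bars for group means and a grey band for the background control medians of 5.14 to 6.34. Olfr981 lay at 8.31 to 11.5 in GFP+ against 4.66 to 6.40 in GFP- samples, and Olfr77 at 4.09 to 7.27 against 9.12 to 13.4.

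Over all members, 8 were higher with no overlap between 10 GFP+ and 10 GFP- samples, against 0.477% of all probe sets. They were Olfr849, Olfr854, Olfr860, Olfr887, Olfr958, Olfr965, Olfr971 and Olfr981. Another 10 were lower with no overlap, against 2.59% of all probe sets, and these were the 10 largest losses named above. Within pools, 48 members passed the test and were higher in all 10, against 2.46% of all probe sets, and 16 passed and were lower in all 10, against 6.29%.

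Signals near background limit how far sizes can be compared. Of the 64 higher members 19 had a GFP- mean at background, and of the 23 lower members 15 had a GFP+ mean at background. Some of these, such as Olfr860 with a GFP- mean of 6.18, lay between 5.85 and the limit of 6.34. There were 24 members at background in both fractions, and 4 of those passed the test: Olfr901 (1.13) and Olfr26 (0.83) were higher and Olfr877 (-0.97) and Olfr945 (-0.98) lower, of which Olfr26 and Olfr945 were named after their values were seen. Their adjusted p-values by limma were 0.0325 for Olfr877, 0.0238 for Olfr945, 0.0187 for Olfr901 and 0.00581 for Olfr26. The call of Olfr877 ended under 8 alternatives (adjusted p 0.051 to 0.225 by limma), among them the removal of odor replicate 1, 4 or 5 or of vehicle replicate 1, 4 or 5. That of Olfr945 ended under 8 (0.0503 to 0.14), among them the removal of odor replicate 1, 2, 4 or 5 or of vehicle replicate 5. That of Olfr901 ended under 5 (0.0503 to 0.273), among them the removal of vehicle replicate 4 or 5, and that of Olfr26 under 2 (0.227 and 0.292).

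The 41 members that did not pass had changes from -1.11 to 1.55. The upper end was Olfr828 at 1.55 (SE 0.49, adjusted p = 0.051 by limma), with signals of 8.93 to 13.5 in GFP+ samples, against 8.15 to 11.3 in GFP- samples. It was positive in 8 of 10 pools and was singled out after its value was seen.

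The clusters were described apart. In the distal cluster 52 of 93 members were higher, 14 were lower and 27 did not pass, with a median change of 0.89. In the proximal cluster 12 of 35 were higher, 9 were lower and 14 did not pass, with a median change of 0.07. The difference between the clusters was not tested. Both held large changes of each sign: Olfr849, Olfr860, Olfr77 and Olfr18 lie in the proximal cluster, and Olfr981, Olfr958, Olfr972 and Olfr878 in the distal.

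Families differed in how evenly their members moved. Of the 9 families with at least 4 members, 6 held members called in both directions. In MOR171 14 of 34 were higher and 8 lower, from Olfr965 at 2.50 to Olfr972 at -5.79. In MOR162 6 of 10 were higher and 1 lower, from Olfr887 at 2.49 to Olfr884 at -4.22. In MOR170 4 of 9 were higher and 1 lower, from Olfr893 at 2.52 to Olfr250 at -3.91.

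MOR161 and MOR145 were mixed as well. In MOR161 4 of 6 were higher and 2 lower, from Olfr876 at 2.26 to Olfr875 at -1.98. Its lower members were 1 wherever the call of Olfr877 ended, and its higher members were 2 without the block of pools and 2 relative to the mature neuron markers. In MOR145 1 of 6 was higher and 2 were lower, from Olfr873 at 1.55 to Olfr18 at -4.02.

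In MOR146, the family of the aligned promoters, Olfr860 (3.81) and Olfr58 (2.13) were higher and Olfr857 (-2.43) was lower, while Olfr862 (0.08) and Olfr859 (-0.53) did not pass. Olfr58 had signals of 6.49 to 9.85 in GFP+ samples, against 3.98 to 7.52 in GFP- samples, with a GFP- mean at background. Olfr857 had 3.72 to 6.17 in GFP+ samples, against 5.25 to 9.38 in GFP- samples. Both pairs of ranges overlapped, and every pool moved the same way for each.

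In the other 3 families all calls were of gains. All 7 members of MOR165 were higher, from Olfr907 at 0.78 to Olfr914 at 2.59. The call of Olfr907 was close to the threshold (SE 0.23, adjusted p = 0.0373 by limma) and ended under 12 alternatives, among them the removal of odor replicate 1, 2, 4 or 5 or of vehicle replicate 1, 2 or 4 (adjusted p 0.0523 to 0.462 over the 12). All 5 of MOR223 were higher, with Olfr978, Olfr979, Olfr980 and Olfr982 between 1.18 and 1.35 and Olfr981 at 4.60. In MOR224 8 of 10 were higher, up to Olfr958 at 3.26, and Olfr959 (0.62) and Olfr975 (0.20) did not pass. Relative to the mature neuron markers the higher members were 4 of 7 in MOR165, 3 of 5 in MOR223 and 6 of 10 in MOR224, with none lower in the 3 families. Without the block of pools they were 3 of 7, 3 of 5 and 5 of 10, again with none lower. With a replicate block across conditions they were 6 of 7, 5 of 5 and 7 of 10. Olfr907 kept its call there, so another member of MOR165 lost its own. Without both pools numbered 5 the higher members were 5 of 7, 5 of 5 and 7 of 10.

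**Figure D3:**
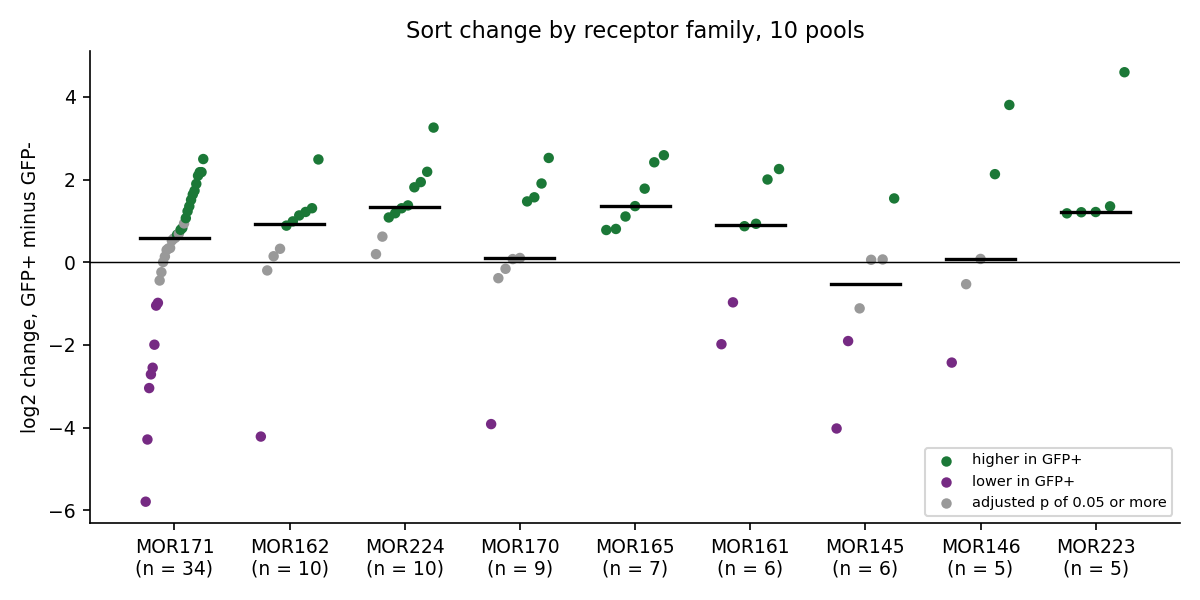
Log2 change between GFP+ and GFP- cells (y axis, 10 pools) for the members of the 9 families with at least 4 members (x axis), with bars for family medians, green for higher, purple for lower and grey for not past the test. MOR165 and MOR223 held gains alone, of 0.78 to 2.59 and 1.18 to 4.60, while MOR171 ran from 2.50 to -5.79.

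Position along the arrays was examined in 126 pairs of next neighbours, 77 of them within 1 family. Both genes passed in 60 pairs, in the same direction in 39 and in opposite directions in 21. Within families the split was 26 and 13, and between families 13 and 8. With 64 called members higher and 23 lower, pairs taken without regard to position would also agree more often than not. Over the 126 pairs the Pearson r of the neighbours' changes was -0.07 and the Spearman rho -0.06, where the pairs share genes and all come from the same arrays. The median absolute difference between neighbours was 1.50, against 1.48 over all 8128 pairs of members. The longest run of higher members was 9 genes, Olfr148 to Olfr968.

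Opposite changes stood side by side within a family. Right after that run came Olfr969, which was lower (-4.29) between Olfr968 (1.64) and Olfr970 (2.18), both higher. Next along the array Olfr971 was higher (2.10) and Olfr972 lower (-5.79), and these 5 neighbours all belong to MOR171. Olfr971 had signals of 7.81 to 9.42 in GFP+ samples, against 5.06 to 7.55 in GFP- samples.

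The remaining pairs among the 5 with the largest opposite changes lay between families. Olfr145 was higher (2.00) beside Olfr878 (-5.28), and Olfr957 was lower (-3.04) beside Olfr958 (3.26). In every pool the members of these 5 pairs kept their signs.

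**Figure D4:**
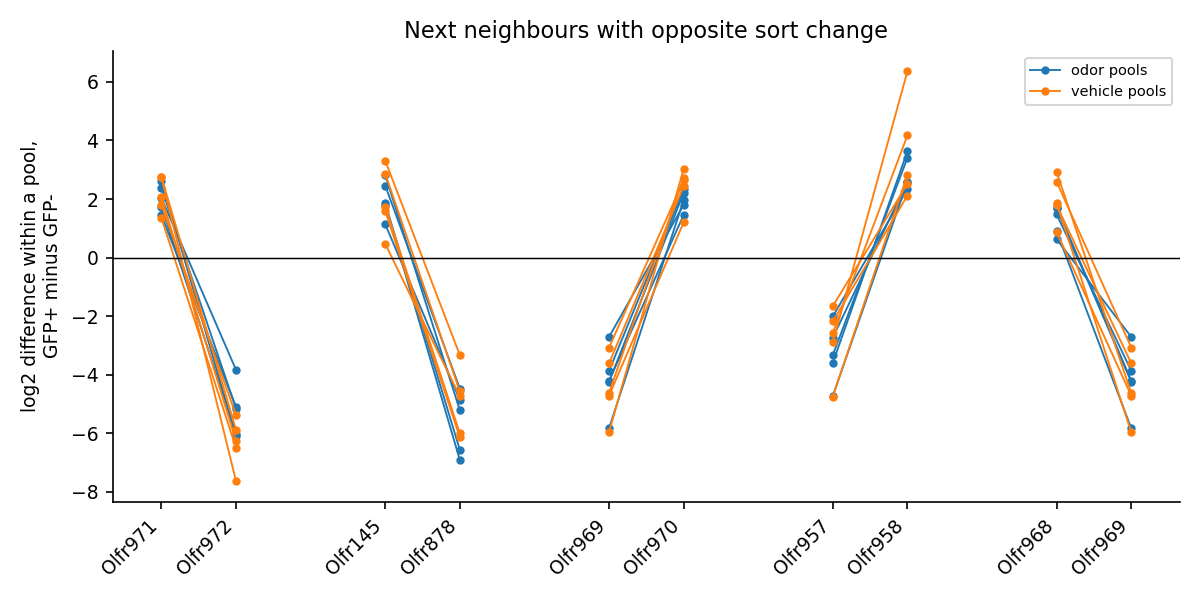
Log2 difference within each pool, GFP+ minus GFP- (y axis), for both genes of the 5 neighbour pairs with the largest opposite changes (x axis), with 1 line per pool, blue for odor and orange for vehicle. Every line crosses 0, as between Olfr971 at 2.10 and Olfr972 at -5.79 on average.

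The sort was then read within each condition. In odor pools 42 members were higher and 18 lower, against 2.07% and 5.82% of all probe sets. In vehicle pools 54 were higher and 17 lower, against 2.26% and 6.86% of all probe sets. Without vehicle replicate 3 the higher count was 35, given without the share of all probe sets. Relative to the mature neuron markers the higher members were 26 in odor pools (55.3% of calls, against 70.0% as deposited) and 33 in vehicle pools (62.3%, against 76.1%). Both conditions called 41 of the same members higher and 16 of the same lower, and none was called in opposite directions. The share of all probe sets called in both is not given here, and both sets of calls share an estimate of the spread. Odor and vehicle pools hold separate mice. Between their changes over the 128 members Pearson's r was 0.97 and Spearman's rho 0.95, as a description over genes on arrays that share the probe sets. The sign differed for 12 members, whose changes were no larger than 1.13 in size.

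The members with the largest changes passed the test in both conditions. Olfr981 had a change of 4.48 in odor pools and 4.71 in vehicle pools (SE 0.36 each). Olfr849 had 4.07 in odor pools and 3.89 in vehicle pools (SE 0.39 each). Olfr77 had -6.32 in odor pools and -6.77 in vehicle pools (SE 0.42 each), and Olfr878 had -5.61 in odor pools and -4.96 in vehicle pools (SE 0.42 each).

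The exposure was meant to show receptors whose neurons respond to the odor, seen as a sort change that is larger in odor pools. None of the 128 members passed this test by limma, and 0 of 22206 probe sets passed (0% of all). At an unadjusted p under 0.05 there were 5 members (3.91%), 39 of 951 odorant receptors elsewhere (4.10%) and 269 probe sets (1.21%). The difference of the changes, odor minus vehicle, ran from -1.45 to 1.09 over the members and was positive in 47. The difference had a median of -0.16 over the members, -0.13 over the receptors elsewhere and 0.01 over all probe sets. Its 95% confidence interval had a median half-width of 1.07, and for 108 of 128 members the whole interval lay within 2 of 0 on the log2 scale, that is within 4-fold. The median was -0.33 in the proximal and -0.10 in the distal cluster.

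The 5 members with the smallest p all had adjusted p-values of 1.0 by limma. Olfr843, of family MOR155, had GFP+ minus GFP- differences of 0.36, 0.13, 1.22, 0.84 and 0.70 in odor pools, against 2.07, 0.79, 2.21, 2.22 and 1.28 in vehicle pools. The odor effect was -1.06 (95% interval -1.83 to -0.29), and the pools overlapped. Olfr859, of family MOR146, had -1.27, -1.64, -0.43, -1.49 and -0.80 in odor pools, against 0.95, -1.16, 0.68, -0.30 and 0.18 in vehicle pools. Its effect was -1.20 (-2.09 to -0.30), and vehicle replicate 2 lay among the odor pools.

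Olfr58, the relative of Olfr860 in the promoters above, had 0.84, 1.21, 1.37, 1.77 and 1.85 in odor pools, against 3.88, 1.98, 4.30, 1.04 and 3.07 in vehicle pools, an effect of -1.45 (-2.63 to -0.27). Vehicle replicate 4 was within the range of the odor pools, and the GFP- mean of this receptor was at background. Olfr972 had -6.09, -3.84, -5.16, -5.10 and -6.04 in odor pools, against -6.27, -5.88, -5.38, -7.63 and -6.50 in vehicle pools. Its effect of 1.09 (0.02 to 2.16) was the 1 positive value among the 5, and it remained among the largest losses in both conditions. Olfr933 had -0.33, -0.32, 0.59, 0.94 and 0.40 in odor pools, against 1.64, 0.59, 1.90, 0.79 and 0.47 in vehicle pools, an effect of -0.82 (-1.64 to -0.0028).

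**Figure D5:**
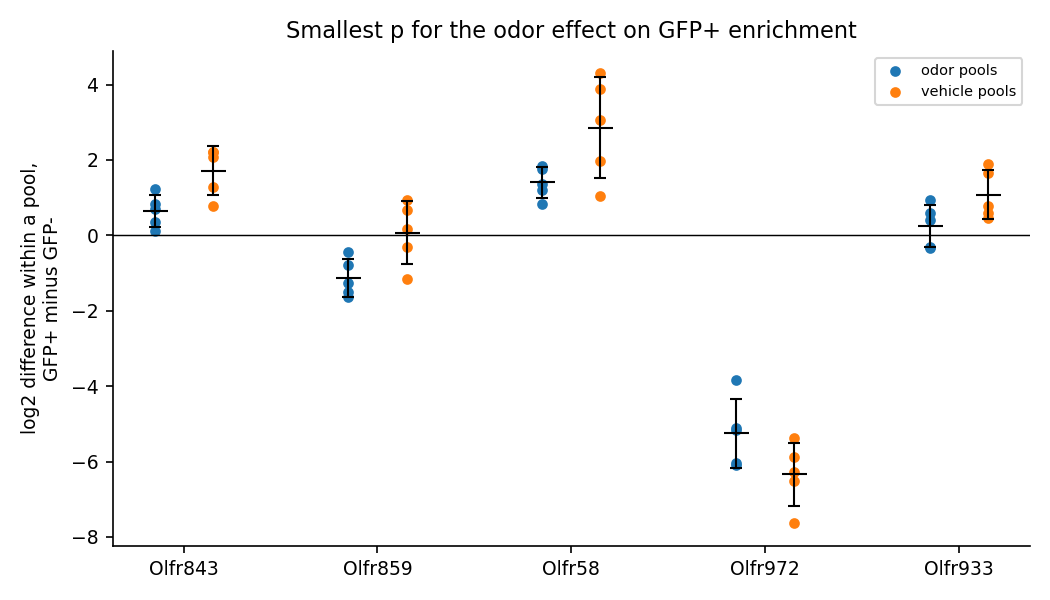
Log2 difference within each pool, GFP+ minus GFP- (y axis), for the 5 members with the smallest p for the odor effect (x axis), odor pools left of vehicle pools, with bars for mean and SD (n = 5 pools each). Odor and vehicle pools overlapped for all 5, and none passed the test (adjusted p = 1.0 by limma).

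Odor and vehicle were also compared within each fraction. In GFP+ cells 0 members and 0 probe sets passed by limma (0% of all). An unadjusted p under 0.05 was seen for 2 members (1.56%), 13 of 951 odorant receptors elsewhere (1.37%) and 61 probe sets (0.275%). The replicate number was also used as a block, which treats odor and vehicle samples of the same number as pairs. Again 0 members and 0 probe sets passed. With this block 18 members (14.1%) and 820 probe sets (3.69%) had an unadjusted p under 0.05, as had 138 of 951 odorant receptors elsewhere (14.5%). Without the block, the 5 members with the smallest p were Olfr866 (0.80), Olfr920 (-0.55), Olfr860 (-0.73), Olfr1537 (-0.68) and Olfr972 (0.64), each with an adjusted p of 1.0. Olfr866 was at background in both fractions. Olfr920 had signals of 7.62, 7.87, 7.63, 7.25 and 7.92 in odor GFP+ samples, against 8.23, 8.74, 8.12, 7.84 and 8.13 in vehicle GFP+ samples. The groups overlapped, at vehicle replicate 4.

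Olfr860 in GFP+ cells was at 9.57, 9.14, 9.51, 9.29 and 10.60 in odor samples, against 10.74, 10.11, 10.22, 9.44 and 11.26 in vehicle samples. The interval of its difference, -1.56 to 0.10, included 0. Olfr860 was thus a receptor with a large gain in the sort in both conditions, 3.47 in odor and 4.14 in vehicle pools (SE 0.28 each), and a difference between conditions that did not pass.

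In GFP- cells 0 members and 0 probe sets passed by limma (0% of all), and 0 members and 30 probe sets had an unadjusted p under 0.05. The smallest p belonged to Olfr843 (0.67), Olfr58 (0.78), Olfr912 (-0.72), Olfr853 (-0.53) and Olfr870 (0.52), with adjusted p-values of 1.0 by limma. Olfr843 in GFP- cells was at 10.28, 10.35, 9.97, 10.34 and 11.50 in odor samples, against 9.39, 9.95, 9.27, 9.58 and 10.91 in vehicle samples, and these overlapped. Comparisons between odor and vehicle share their samples with the odor effect on enrichment, so these values are not separate evidence.

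Genes known for receptor choice and transcription were read beside the members. Of 12 such genes, among them Lhx2, its partner Ldb1, the EBF factors and the demethylase Kdm1a, 0 were higher and 1 was lower in GFP+ cells. That gene was Lbr, which encodes the lamin B receptor of the nuclear envelope. It is also expressed in white blood cells, whose markers were lower in the same comparison, and the cause of its change was not tested. The median change of the 12 was 0.17.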

How the data were processed

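Per the labels' protocols, biotinylated cRNA from 50 to 100 ng of total RNA was hybridised to Clariom S arrays, and per the submitters' processing notes Affymetrix Expression Console was used. The program's version and its normalization method are not stated in what was used here. The authors deposited log2 signals, 1 value per probe set and array, a scale read from the range of the values. These were analysed as deposited, with no filter, after 6640 control rows of 28846 were left out. The members, the gene lists and the rule for named genes were chosen with earlier results of these data known.

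Differences GFP+ minus GFP- within 10 pools were fitted with limma 3.58.1 (R 4.3.3; lmFit, eBayes) over 22206 probe sets, with Benjamini-Hochberg adjustment at 0.05. Changes over all pools give both conditions equal weight. Odor was compared with vehicle within a fraction on 10 samples without a block. The code was tested on simulated data. Precision is limited by the number of arrays, and without detection calls a signal at background says nothing of expression.

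By the labels both fractions of a pool come from the same mice. For odor and vehicle samples of the same number, deviations from group means correlated at 0.251, 0.522, 0.349, 0.157 and 0.862 in GFP+ cells, all above 0.1, so the pairing was tried as a replicate block. In GFP- cells they correlated at 0.144, -0.378, 0.277, 0.196 and 0.842, and in pool differences the lowest was -0.481. By that limit the numbers did not pair there, though both fractions of a number were taken to come from the same pools.

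All 128 members matched RefSeq (GRCm38.p6) by Entrez gene ID. Named were the 10 largest changes in each direction with 1 sign in all pools, the 5 smallest p of each odor comparison, the 5 largest opposite neighbour pairs, the ends of each family of at least 4 and up to 6 outliers. Protein identity, a further part of the rule, was not used here. Promoter windows were aligned with Biopython 1.88 (local mode). Alternatives were quantile normalization, centring, a filter on dim probe sets, an intensity trend, array weights, a term for or removal of the pools numbered 5, each pool left out, and other blocks. Single members were followed through them for the sort over all pools and for the odor comparison that named them. Added after seeing the data were the scaling to neuron markers and the fit without the pools of 3 arrays.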

Additional observations from a re-analysis of the deposited data

Results flagged for a closer look

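Within groups of 5 samples, a single sample stood far from the other 4 (gap over range above 0.71) in 48 of 512 sets of member and group (9.38%), where chance flags about 5%. Of these, 44 were samples of replicate 5, whose 4 arrays were brighter than the rest.

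Among the members named by the rule, the odor GFP+ sample of replicate 5 stood apart for Olfr901 (7.53, against 3.92 to 4.45 in the others), Olfr906 (9.19, against 5.68 to 6.60), Olfr854 (10.45, against 7.11 to 7.93), Olfr77 (7.27, against 4.40 to 4.96), Olfr58 (9.36, against 6.49 to 7.15) and Olfr849 (13.14, against 11.0 to 11.6). The odor GFP- sample of replicate 5 did so for Olfr884 (10.97), Olfr860 (8.0), Olfr145 (8.03), Olfr870 (9.3) and Olfr843 (11.5). The vehicle GFP+ sample of replicate 5 did so for Olfr150 (11.78), Olfr910 (11.84) and Olfr933 (9.25), and the vehicle GFP- sample for Olfr877 (7.51) and Olfr968 (11.88). The 1 value outside replicate 5, and the 1 low one, was Olfr887 in odor GFP- replicate 4 (4.16, against 4.77 to 5.01). The median size of the differences over the called members was 1.79 in odor and 1.98 in vehicle pool 5, against 1.47 to 2.12 in the others. Some single losses were larger there. For Olfr18, Olfr250, Olfr884, Olfr948, Olfr957 and Olfr969 both pools numbered 5 had a larger loss than any other pool. Olfr250 had -6.37 in odor and -6.46 in vehicle pool 5, and the next was -5.27 in vehicle pool 2. This was not so for Olfr77, Olfr972, Olfr878 and Olfr829, the others of the 10 largest losses.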

How the results depend on the processing

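Counts in this section are of members alone, without the share of all probe sets unless stated. Without the pairing of fractions within pools (no replicate block) the higher members were 41 over all pools, 18 in odor and 27 in vehicle pools, in place of 64, 42 and 54. With a replicate block across conditions the counts over all pools were 61 higher and 25 lower, and no call of a single named member changed. Relative to mature neuron markers the higher members were 26 in odor and 33 in vehicle pools, against 1.3% of all probe sets in each. Leaving out 1 replicate gave 60 to 67 higher over all pools, 34 to 45 in odor and 35 to 51 in vehicle pools. Without the pools of the 3 arrays in doubt the counts over all pools were 69 higher and 23 lower. Over all probe sets centring gave 4307 higher in place of 1023. The change of Olfr975, 0.20 and not past the test, became -0.17 with array weights, -0.20 relative to neuron markers, -0.16 without the arrays in doubt and -0.11 to 0.36 with 1 replicate left out, the lowest without vehicle replicate 1. Among values run under alternatives for single members, 1021 kept direction and side of the threshold and 37 lost the call: 12 of Olfr907, 8 each of Olfr877 and Olfr945, 5 of Olfr901, 2 of Olfr26 and, without the block of pools, 1 each of Olfr910 (adjusted p 0.0707) and Olfr980 (0.0585). Olfr906 (0.72) passed under 6. The causes were not tested.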
